A study of Rattus norvegicus with 15 samples.

Results

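The genes described here are the endothelial, pericyte and angiogenesis genes of the rat striatum: 40 genes chosen by name for the cells of the brain vessel wall and for the signals that make vessels grow. Of these 40, 36 had a row of the deposited table that carried their symbol and no other, each of them 1 row, among 18511 rows with a single symbol and 36685 rows in all. The other 4, Pecam1, Eng, Kdr and Acta2, had no such row and were not analysed here. Levels are log2 RMA signals, so a difference of 1 is a doubling of signal. Of the 36 genes, 30 had a mean over all arrays above 5.85, the 95th percentile of 69 olfactory receptor rows, which is used here as a dim level. Angpt1, Flt4, Plvap, Vegfc, Icam2 and Anpep lay below it.

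Striatum of adult male Sprague-Dawley rats was hybridised in 5 groups of 3 arrays, 1 rat per array. Normal rats had a sham operation. PD rats carried a 6-OHDA lesion (a toxin of catecholamine neurons) of the right medial forebrain bundle and received no L-DOPA. LID, LID + Vehicle and LID + PD98059 rats had the same lesion, were given L-DOPA with benserazide every day for 3 weeks and had been selected for full dyskinesia. LID + PD98059 rats also received PD98059, an inhibitor of MEK, the kinase that activates ERK, into the right lateral ventricle for 12 days from day 10. LID + Vehicle rats received the solvent by the same route, and a ventricular cannula is described for these 2 infused groups and not for LID rats. The lesion is on 1 side only, and the study's methods name the lesioned side as the source of the array samples. The samples are bulk tissue, and fewer cells of a type cannot be told apart from less RNA per cell.

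Brain capillaries are built of endothelial cells sealed by tight junctions, which carry nutrients in and pump drugs out, and of pericytes wrapped around them. Arterioles add smooth muscle. VEGF proteins bind receptors such as Flt1 on endothelium and drive sprouting, the angiopoietins bind Tek (Tie2) and set how firmly the wall is held together, and PDGF-B from endothelium recruits pericytes through Pdgfrb. In striatum of dyskinetic rats, endothelial proliferation and a leaky barrier have been described as accompaniments of L-DOPA treatment.

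Several marker genes of the vessel wall were above the dim level in every group, while Icam2 was below it in all 5, Plvap in 4 and Anpep in 3. Rgs5, a pericyte gene, had a group mean of 9.18 to 9.79, Tjp1, a junction protein, 9.99 to 10.20 and Cldn5, the main endothelial claudin, 7.80 to 8.25. The mean of the 36 genes was 7.09, 7.26 and 7.16 on the Normal arrays, 7.44, 7.27 and 7.39 in PD, 7.48, 7.43 and 7.44 in LID, 7.53, 7.42 and 7.49 in LID + Vehicle and 7.42, 7.38 and 7.49 in LID + PD98059. Each of the 12 arrays of lesioned striatum lay above the 3 Normal arrays, PD replicate 2 by the smallest margin. Array medians ran from 5.56 to 5.65 and correlations between arrays from 0.967 to 0.987. Striatal projection neuron markers, 11 genes, had a mean of 9.46 to 10.40, while 5 markers of cortical neurons had a mean of 8.73 to 9.20 on the Normal arrays and of 6.75 to 8.66 on the lesioned ones.

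**Figure D1:**
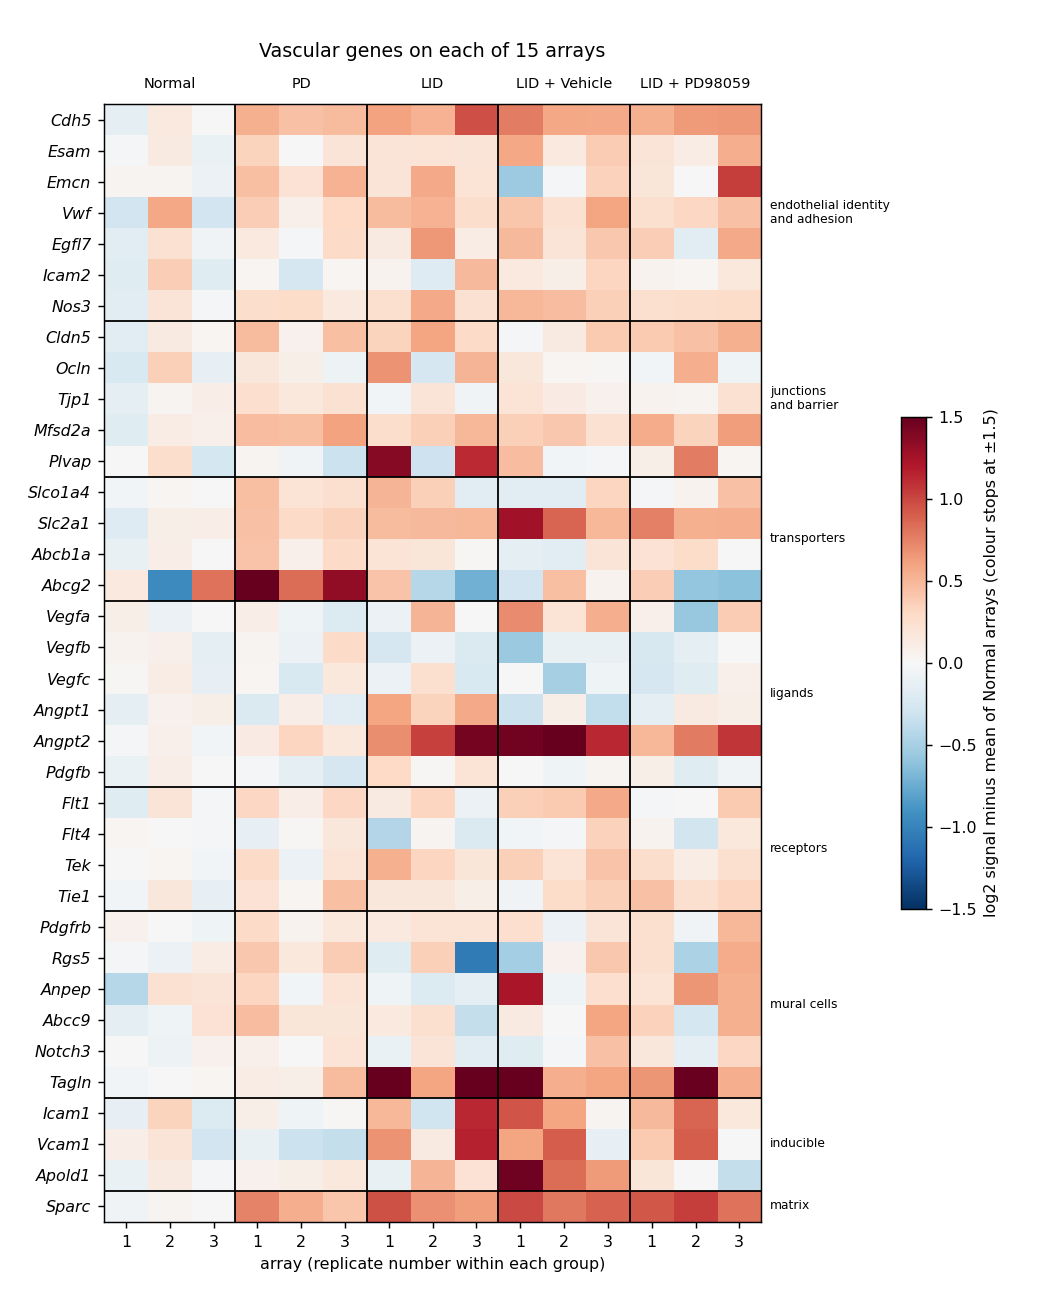
Log2 signal of the 36 vascular genes (rows, grouped by role) on each of the 15 arrays (columns, by group and replicate), as the difference from the gene's mean over the 3 Normal arrays. Sparc, Cdh5 and Angpt2 are above the Normal mean on all 12 lesioned arrays, and Abcg2 is highest in PD.

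Compared with Normal rats, PD rats had no vascular gene past an adjusted p of 0.05 with a fold change of 1.2 (limma, two-sided, Benjamini-Hochberg over all 36685 rows) and 0 of all rows passed, while 1772 rows (4.83%) had an unadjusted p under 0.05. With an unadjusted p under 0.05 and the same fold change, called the unadjusted threshold below, 6 of the 36 genes were higher and 0 lower, beside 2.36% of all rows higher and 1.95% lower. The 6 were Sparc, Mfsd2a, Cdh5, Abcg2, Cldn5 and Slc2a1. Their smallest adjusted p was 0.784. In the same comparison 4 of 7 oligodendrocyte markers were higher and 2 of 5 cortical neuron markers lower at the unadjusted threshold, with list means of 9.81 to 10.19 against 10.29 to 10.45 and of 8.73 to 9.20 against 8.05 to 8.66 on Normal and PD arrays, and their part in the vascular values was not tested. The median difference over the 36 genes was 0.19, against 0.0064 over all rows, and 29 of the 36 lay above 0. All 3 PD arrays exceeded all 3 Normal arrays for 11 of the 36 genes and the reverse held for 0, while 5.92% of all rows were higher and 4.58% lower without overlap. With 3 arrays a side, the smallest two-sided p of an exact permutation test is 0.1.

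In LID against PD, 6 genes were higher at the unadjusted threshold (3.48% of all rows) and 1 was lower (4.69% of all rows). Angpt2, Vcam1, Tagln, Pdgfb, Plvap and Angpt1 were higher and Abcg2 lower, with 0 past the adjusted threshold, which 2 rows of the whole table (0.00545%) passed, both higher. Arrays of the 2 groups did not overlap for 6 genes higher and 2 lower in LID, beside 6% and 8.97% of all rows. In LID + Vehicle against LID, Apold1, Slc2a1, Flt1 and Anpep were higher and Angpt1 lower, 4 and 1 genes beside 1.85% and 1.82% of all rows. No overlap was seen for 3 genes higher and 1 lower (3.79% and 4.22% of all rows), and 0 rows of the table passed the adjusted threshold in limma, with 1514 (4.13%) under an unadjusted p of 0.05. In LID + PD98059 against LID + Vehicle, 0 genes were higher and 4 lower, namely Apold1, Angpt2, Vegfa and Flt1, beside 2.33% and 2.12% of all rows. Groups did not overlap for 1 gene higher and 3 lower (4.98% and 4.18% of all rows), and 0 rows passed the adjusted threshold, with 1866 (5.09%) under an unadjusted p of 0.05. The median differences over the 36 genes in these 3 comparisons were 0.08, 0.06 and −0.03, against −0.03, −0.01 and 0.01 over all rows. Each comparison shares its arrays with the next, so an array that stands high in 1 group enters 2 of them.

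Joining the 9 arrays of the 3 L-DOPA groups against PD, 5 genes were higher at the unadjusted threshold (3.83% of all rows) and 2 lower (5.23%), with a median of 0.11 against −0.02 over all rows and 0 past the adjusted threshold, which 0.00818% of all rows passed as higher and 0.00818% as lower. No overlap with PD was seen for 3 genes higher and 1 lower, beside 1.29% and 2.05% of all rows. Joining all 12 lesioned arrays against Normal, a comparison added after the levels had been seen, gave 9 genes higher (3.59% of all rows) and 0 lower (4.96%). Its lesioned side joins the 9 L-DOPA arrays with the 3 PD arrays, so lesion and L-DOPA cannot be told apart in it. In that comparison 3 of the 36 genes rose past the adjusted threshold, which 0.161% of all rows passed in this direction, and 32 of 36 lay above 0, with a median of 0.24 against −0.0042 over all rows. Normal arrays lay below all lesioned arrays for 6 genes (0.673% of all rows) and above them for 0 (0.968%). The 3 that passed were Sparc, Cdh5 and Angpt2. Most of the 36 genes were above the dim level, where such calls were more frequent than over all rows. Of 10899 rows with a single symbol above that level, 633 were higher at the unadjusted threshold in this comparison. Of the same 10899 rows, 46 rose past the adjusted threshold and 159 were higher without overlap. Cortical neuron markers moved the other way in the same comparison: 4 of 5 were lower at the unadjusted threshold, and Neurod6 and Neurod2 fell past the adjusted one, calls that were lost without any Normal array (adjusted p of 0.0538 to 0.125 for Neurod6 and 0.0738 to 0.229 for Neurod2) and, for Neurod2, without any of 9 lesioned arrays (all LID arrays, PD replicates 2 and 3, LID + Vehicle replicates 2 and 3 and LID + PD98059 replicates 1 and 2, at 0.053 to 0.0754). Neurod6 had a mean of 5.37 over the 15 arrays, under the dim level. In the L-DOPA groups against PD 4 of the 5 cortical neuron markers were lower at the unadjusted threshold as well. Of 7 oligodendrocyte markers 4 were higher at the unadjusted threshold, and the list's mean was 9.81 to 10.19 on Normal and 10.03 to 10.54 on lesioned arrays. Reactive astrocyte markers had a mean of 6.75 to 7.27 on Normal, 7.04 to 7.06 on PD and 7.45 to 10.42 on L-DOPA arrays. The part of these cells in the vascular values was not tested.

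**Figure D2:**
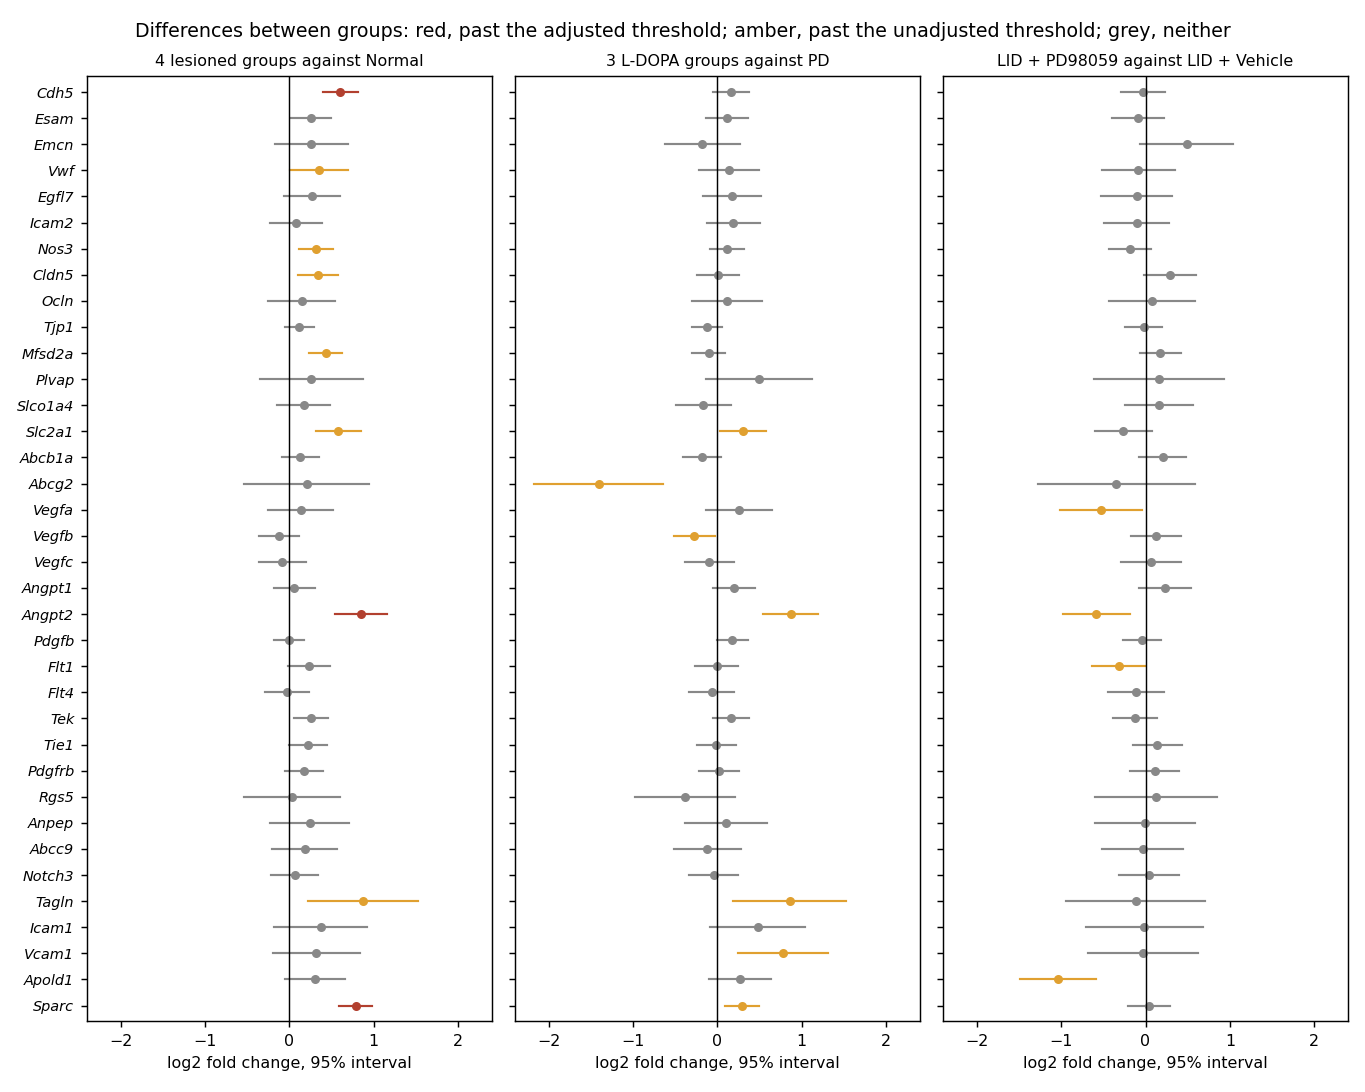
Log2 fold change (points) with its 95% interval from limma (lines) for the 36 genes in 3 comparisons, with red for genes past the adjusted threshold, amber for genes past the unadjusted threshold and grey for the rest. Sparc, Cdh5 and Angpt2 are red in the comparison of lesioned groups with Normal, and no gene is red in the other 2 panels.

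Sparc, which encodes a secreted collagen-binding protein of vascular and glial cells, had the smallest p of the 36 genes in PD and in all lesioned arrays against Normal. Its log2 signal was 10.16, 10.26 and 10.21 in Normal, 10.96, 10.75 and 10.63 in PD, 11.17, 10.90 and 10.84 in LID, 11.20, 11.01 and 11.09 in LID + Vehicle and 11.14, 11.25 and 11.03 in LID + PD98059. The highest Normal array lay below the lowest of the 12 lesioned arrays, the group means ascended from Normal through PD to the 3 L-DOPA groups, and the 4 lesioned groups overlapped at least their neighbours in that order. In the 12 lesioned arrays Sparc rose by 0.79 (SE 0.09, a fold of 1.73, limma adjusted p = 0.00499, exact permutation p = 0.0022, two-sided, the smallest that 12 against 3 arrays can give). The call held with each of the 15 arrays left out, at adjusted p from 0.00541 to 0.0488. The step from Normal to PD alone was 0.57 (SE 0.11, unadjusted p = 0.000263), ninth of all rows by p. The step from PD to the 3 L-DOPA groups was 0.29 (unadjusted p = 0.00884, adjusted p = 0.289), and it missed the unadjusted threshold without LID replicate 1 or PD replicate 3 and under quantile normalization. Vehicle and PD98059 groups differed by 0.04, with a 95% interval of −0.21 to 0.29.

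The promoter of Sparc is shown because Sparc had the smallest p of the group. Matches on either strand to AGGAAG, a form of the site bound by ETS factors, are in capitals. Other forms of that site were not searched and are left in small letters. The sequence is that of RefSeq on build GRCr8, chr10:40038767-40039066, minus strand, from 250 bases before to 50 bases after the start.
Sparc: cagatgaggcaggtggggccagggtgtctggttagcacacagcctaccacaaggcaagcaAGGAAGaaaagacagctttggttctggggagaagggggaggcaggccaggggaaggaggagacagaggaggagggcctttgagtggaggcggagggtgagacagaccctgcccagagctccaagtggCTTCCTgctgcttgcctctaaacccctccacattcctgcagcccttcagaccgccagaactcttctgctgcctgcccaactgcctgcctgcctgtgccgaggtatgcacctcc
AGGAAG stands at 2 positions in this window and in 34.5% of all 33469 promoters of that length. It was found in 11 of the 26 vascular genes with a promoter entry, or 42.3%.

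Among the 7 genes of endothelial identity and adhesion, Cdh5 rose past the adjusted threshold in the joined lesioned groups against Normal. In that comparison Nos3 and Vwf were higher at the unadjusted threshold. In PD alone against Normal, Cdh5 was the only gene of the 7 past the unadjusted threshold. Cdh5, the VE-cadherin of adherens junctions, read 6.93, 7.22 and 7.06 in Normal, 7.60, 7.52 and 7.55 in PD, 7.67, 7.60 and 8.04 in LID, 7.84, 7.65 and 7.64 in LID + Vehicle and 7.60, 7.71 and 7.72 in LID + PD98059. Normal arrays stood below all lesioned arrays, and PD, the lowest lesioned group, overlapped LID and LID + PD98059 by its highest array only. Its rise was 0.61 (SE 0.10, limma adjusted p = 0.0206, exact permutation p = 0.0022), and without Normal replicate 1 or 3 the adjusted p was 0.0883 and 0.122. In PD alone the difference was 0.48 (unadjusted p = 0.00148), past the unadjusted threshold with each of the 6 arrays left out. L-DOPA groups against PD gave 0.16, with a 95% interval of −0.05 to 0.37.

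Nos3, the endothelial nitric oxide synthase, read 5.88, 6.25 and 6.04 in Normal, 6.32, 6.33 and 6.21 in PD, 6.29, 6.63 and 6.28 in LID, 6.55, 6.52 and 6.41 in LID + Vehicle and 6.30, 6.31 and 6.33 in LID + PD98059. The second Normal array overlapped the lowest PD array, and the difference of lesioned from Normal arrays was 0.32 (unadjusted p = 0.00408, adjusted p = 0.169), lost from the unadjusted threshold without Normal replicate 1. Vwf, the von Willebrand factor stored by endothelium, read 6.66, 7.53 and 6.66 in Normal, 7.32, 7.03 and 7.26 in PD, 7.43, 7.47 and 7.22 in LID, 7.37, 7.18 and 7.55 in LID + Vehicle and 7.19, 7.26 and 7.39 in LID + PD98059. Normal replicate 2 was above 11 of the 12 lesioned arrays, and 10 of the 15 arrays, when left out, took Vwf out of the unadjusted threshold (its difference of 0.35 became 0.21 to 0.64), as did quantile normalization. Esam, Emcn, Egfl7 and Icam2 encode further adhesion, surface and secreted proteins of endothelium. They differed from Normal by 0.26, 0.26, 0.26 and 0.08 and passed neither threshold in any of the 6 comparisons. Their 95% intervals in lesioned against Normal arrays were 0.02 to 0.50, −0.17 to 0.70, −0.07 to 0.60 and −0.23 to 0.39.

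Of the junction and barrier genes, Mfsd2a and Cldn5 were higher in PD than in Normal rats at the unadjusted threshold. Mfsd2a, the lipid transporter that keeps vesicle traffic across brain endothelium low, read 6.99, 7.28 and 7.24 in Normal, 7.64, 7.63 and 7.78 in PD, 7.44, 7.53 and 7.67 in LID, 7.53, 7.57 and 7.40 in LID + Vehicle and 7.72, 7.51 and 7.80 in LID + PD98059. Its lowest lesioned array exceeded its highest Normal array, and PD and LID + PD98059 had the same group mean of 7.68. PD exceeded Normal by 0.51 (SE 0.11, unadjusted p = 0.000554, adjusted p = 0.784), and all lesioned arrays exceeded Normal by 0.43 (adjusted p = 0.053, just outside the threshold). Both stayed past the unadjusted threshold with each array left out. In the L-DOPA groups against PD the difference was −0.11, with a 95% interval of −0.30 to 0.09.

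Cldn5 read 7.64, 7.93 and 7.82 in Normal, 8.27, 7.86 and 8.25 in PD, 8.13, 8.38 and 8.09 in LID, 7.78, 7.93 and 8.19 in LID + Vehicle and 8.19, 8.23 and 8.33 in LID + PD98059. PD replicate 2 and LID + Vehicle replicates 1 and 2 lay near the Normal arrays, and LID + PD98059 exceeded LID + Vehicle without overlap, by 0.29 (95% interval −0.02 to 0.59, unadjusted p = 0.0639). The difference of PD from Normal, 0.33 (unadjusted p = 0.0349), was lost without PD replicate 1 or 3 or Normal replicate 1 or 3 (0.25 to 0.47 with single arrays left out) and in a fit of these 6 arrays alone. That of lesioned from Normal arrays, 0.34 (unadjusted p = 0.00961), was lost without Normal replicate 1 alone. Tjp1 and Ocln, a scaffold and a membrane protein of tight junctions, passed no threshold in any comparison, and Tjp1 was higher in PD than in Normal by 0.21 with a 95% interval of −0.01 to 0.43.

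**Figure D3:**
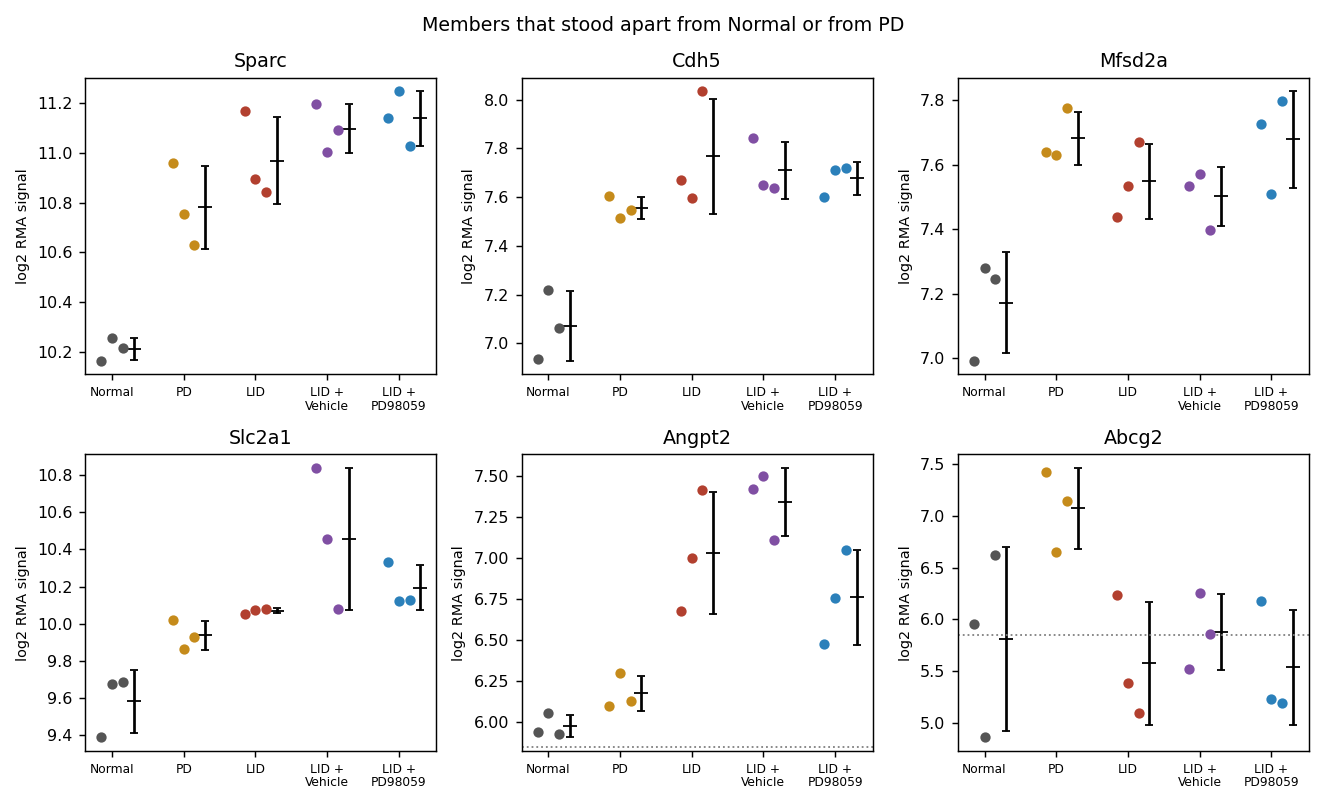
Log2 signal of 6 vascular genes on each array (points, replicates 1 to 3 from left to right) with the group mean and SD (n = 3 rats, bars to the right), and the dim level of 5.85 as a dotted line for Angpt2 and Abcg2. Sparc, Cdh5, Mfsd2a, Slc2a1 and Angpt2 have their 3 Normal arrays below all 12 lesioned arrays, while Abcg2 is above its other groups in PD.

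Slc2a1, the glucose transporter GLUT1 of brain capillaries, was the transporter with the smallest p in lesioned against Normal arrays, without passing the adjusted threshold. It read 9.39, 9.67 and 9.68 in Normal, 10.02, 9.86 and 9.93 in PD, 10.05, 10.07 and 10.08 in LID, 10.84, 10.46 and 10.08 in LID + Vehicle and 10.33, 10.12 and 10.13 in LID + PD98059. Normal arrays lay below all lesioned arrays, the 3 LID arrays were nearly level, and LID + Vehicle replicate 1 stood above every other array. Lesioned and Normal arrays differed by 0.58 (SE 0.12, unadjusted p = 0.000446, adjusted p = 0.0647, exact permutation p = 0.0044). PD differed from Normal by 0.36 (unadjusted p = 0.0421), LID + Vehicle from LID by 0.39 (unadjusted p = 0.0285) and the L-DOPA groups from PD by 0.30 (unadjusted p = 0.0351). All 3 of these smaller differences left the unadjusted threshold with certain arrays out: any PD array or Normal replicate 1 for the first, LID + Vehicle replicate 1 or 2 or any LID array for the second, where values ran from 0.20 to 0.58, and PD replicate 2 or 3, LID + Vehicle replicate 1 or LID + PD98059 replicate 1 for the third. The second was also lost in a fit of the compared arrays alone and the third under quantile normalization. The promoter of Slc2a1 is given because it holds the core of the hypoxia response element, ACGTG or GCGTG on either strand, in capitals (RefSeq, GRCr8, chr5:138002272-138002571, plus strand).
Slc2a1: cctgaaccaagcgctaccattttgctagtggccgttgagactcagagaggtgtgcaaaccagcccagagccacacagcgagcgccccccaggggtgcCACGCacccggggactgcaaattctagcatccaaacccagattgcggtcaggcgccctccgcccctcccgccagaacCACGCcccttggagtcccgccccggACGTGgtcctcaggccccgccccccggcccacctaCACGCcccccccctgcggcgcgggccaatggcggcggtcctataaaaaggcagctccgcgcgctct
The core stands at 4 positions here. Such a core was present in 12 of 26 vascular promoters (46.2%) and in 41.6% of all promoters.

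Abcg2, the breast cancer resistance protein that pumps drugs back into blood, was higher in PD than in the other groups, with a wide spread and with group means under the dim level in Normal, LID and LID + PD98059. Its log2 signal was 5.95, 4.86 and 6.62 in Normal, 7.42, 6.65 and 7.14 in PD, 6.24, 5.39 and 5.09 in LID, 5.52, 6.26 and 5.86 in LID + Vehicle and 6.18, 5.23 and 5.19 in LID + PD98059. PD arrays were above every array of every other group, and Normal replicate 2 was the lowest of the 15. PD exceeded Normal by 1.26 (SE 0.43, unadjusted p = 0.012, adjusted p = 0.997), a difference that was 0.79 and past no threshold without Normal replicate 2. LID was lower than PD by a log2 difference of −1.50 (SE 0.43, unadjusted p = 0.00419), and the 9 L-DOPA arrays differed from PD by −1.41 (SE 0.35, adjusted p = 0.183, exact permutation p = 0.00455, the smallest that 9 against 3 arrays can give). Both stayed past the unadjusted threshold with any single array left out. The group means outside PD, 5.53 to 5.88, lay close to the dim level, so the sizes of these differences depend on signals close to background. Abcb1a, the P-glycoprotein pump, and Slco1a4, an organic anion transporter, passed no threshold, with PD above Normal by 0.27 (95% interval −0.01 to 0.54) and 0.29 (−0.11 to 0.69).

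Among the ligands, Angpt2 was the one with a call past the adjusted threshold. Angpt2, the angiopoietin that endothelium releases to loosen the vessel wall, read 5.94, 6.06 and 5.93 in Normal, 6.10, 6.30 and 6.13 in PD, 6.68, 7.00 and 7.42 in LID, 7.42, 7.50 and 7.11 in LID + Vehicle and 6.48, 6.76 and 7.05 in LID + PD98059. Normal and PD arrays lay between 5.93 and 6.30, and all 9 L-DOPA arrays lay above them, from 6.48 in LID + PD98059 to 7.50 in LID + Vehicle. The 9 L-DOPA arrays exceeded PD by 0.87 (SE 0.15, a fold of 1.83, unadjusted p = 6.417e-05, limma adjusted p = 0.0714, exact permutation p = 0.00455), which missed the adjusted threshold. With array weights or with dim rows left out the adjusted p was 0.0415 and 0.0414, and over single arrays left out it ran from 0.0573 to 0.347. LID alone exceeded PD by 0.86 (SE 0.18, unadjusted p = 0.000455, adjusted p = 0.294), and PD differed from Normal by 0.20, with a 95% interval of −0.20 to 0.60. In the 12 lesioned arrays against Normal Angpt2 rose by 0.85 (adjusted p = 0.0286), a call that was lost without PD replicate 2 (0.0555) or 3 (0.0518) or Normal replicate 1 (0.0975), 2 (0.0871) or 3 (0.146).

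LID + PD98059 arrays were all below LID + Vehicle arrays for Angpt2, by 0.58 on average (log2 difference −0.58, SE 0.18, unadjusted p = 0.00739, adjusted p = 0.966, exact permutation p = 0.1). They overlapped the LID arrays, and LID + Vehicle stood above LID by 0.31 with a 95% interval of −0.09 to 0.71. The difference between PD98059 and vehicle stayed past the unadjusted threshold with each of the 6 arrays left out (−0.73 to −0.44).

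Vegfa, the main growth factor of sprouting vessels, read 8.78, 8.60 and 8.68 in Normal, 8.78, 8.63 and 8.48 in PD, 8.60, 9.20 and 8.68 in LID, 9.40, 8.90 and 9.24 in LID + Vehicle and 8.77, 8.12 and 9.06 in LID + PD98059. LID + Vehicle had the highest group mean, 9.18, and LID + PD98059 replicate 2 the lowest single array. PD98059 and vehicle groups overlapped and differed by −0.53 (SE 0.22, unadjusted p = 0.0342, adjusted p = 0.966). That difference was −0.26 without LID + PD98059 replicate 2, and it left the unadjusted threshold also without LID + Vehicle replicate 1 or 3, with array weights and in a fit of these 6 arrays alone. Vegfa in the L-DOPA groups exceeded PD by 0.26 (95% interval −0.14 to 0.65), and PD differed from Normal by −0.06.

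Vegfb, a relative of Vegfa that binds Flt1, was lower in the L-DOPA groups than in PD by 0.27 (log2 difference −0.27, unadjusted p = 0.0313, adjusted p = 0.393). Its arrays read 8.89, 8.91 and 8.70 in Normal, 8.87, 8.74 and 9.12 in PD, 8.57, 8.74 and 8.61 in LID, 8.27, 8.72 and 8.72 in LID + Vehicle and 8.59, 8.69 and 8.82 in LID + PD98059. LID + Vehicle lay below PD without overlap and the other groups overlapped PD, and the difference left the unadjusted threshold without any 1 of 5 arrays (PD replicate 1 or 3, or the first replicate of LID, LID + Vehicle or LID + PD98059), on median-centred arrays and with array weights. Pdgfb, the pericyte recruiting factor, read 6.83, 7.02 and 6.92 in Normal, 6.89, 6.78 and 6.67 in PD, 7.22, 6.94 and 7.12 in LID, 6.92, 6.86 and 6.96 in LID + Vehicle and 7.01, 6.74 and 6.86 in LID + PD98059. LID exceeded PD without overlap by 0.31 (unadjusted p = 0.0111, adjusted p = 0.477), lost without LID replicate 1 or PD replicate 3, while the infused groups lay at 6.74 to 7.01. Angpt1, the stabilising angiopoietin, was below the dim level on every array. It read 4.47, 4.79 and 4.53 in PD, 5.28, 5.03 and 5.26 in LID and 4.37, 4.77 and 4.32 in LID + Vehicle, so its calls in LID against PD and in LID + Vehicle against LID rest on signals under that level. Vegfc, a ligand of Flt4, was dim as well.

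No receptor passed the adjusted threshold. Flt1, a VEGF receptor of endothelium, read 7.82, 8.19 and 7.98 in Normal, 8.30, 8.09 and 8.30 in PD, 8.12, 8.32 and 7.90 in LID, 8.35, 8.39 and 8.56 in LID + Vehicle and 7.97, 7.99 and 8.38 in LID + PD98059. LID + Vehicle was above LID by 0.32 (unadjusted p = 0.0466) and above LID + PD98059 by the same amount, 0.32 (log2 difference of PD98059 from vehicle −0.32, unadjusted p = 0.0483), and the same 3 LID + Vehicle arrays enter both. LID + Vehicle did not overlap LID and did overlap LID + PD98059. Either difference left the unadjusted threshold with 5 of the 6 arrays when 1 was taken out, all but LID replicate 2 in the first (0.21 to 0.42) and all but LID + PD98059 replicate 3 in the second. Both were also lost in a fit of the compared arrays alone, the first on median-centred arrays and the second under quantile normalization. Tek differed between lesioned and Normal arrays by 0.25 (unadjusted p = 0.0185), under the fold of 1.2, and Tie1, its partner receptor, by 0.22 (95% interval −0.0043 to 0.45). Flt4 was below the dim level.

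**Figure D4:**
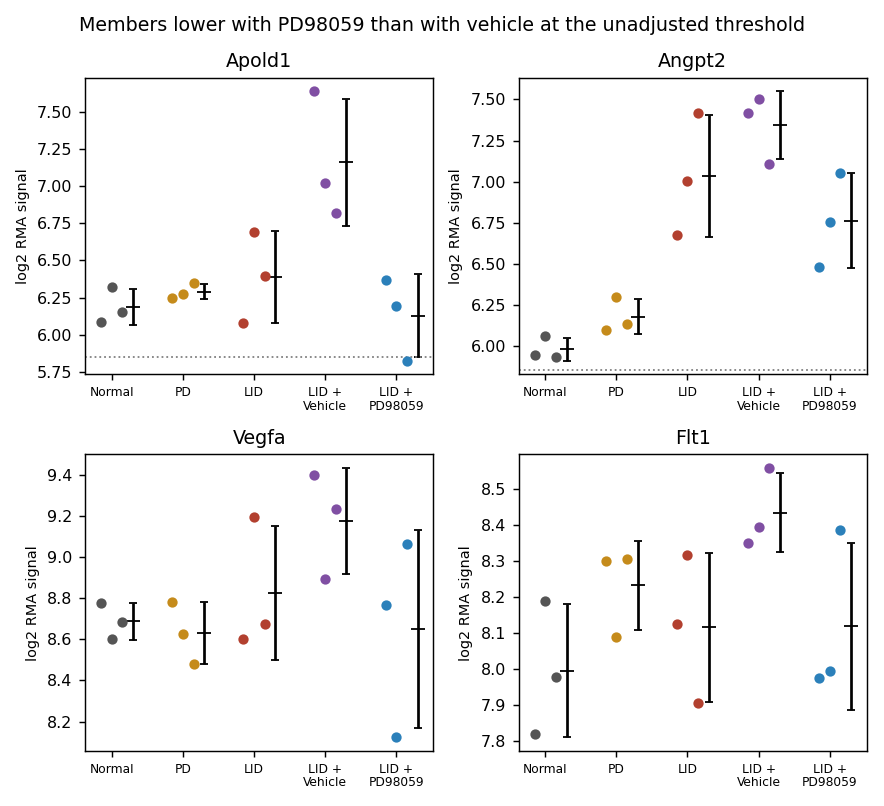
Log2 signal of Apold1, Angpt2, Vegfa and Flt1 on each array (points, replicates 1 to 3 from left to right) with group mean and SD (n = 3 rats), and the dim level of 5.85 as a dotted line for Apold1 and Angpt2. LID + Vehicle arrays are the highest for Apold1, while Vegfa and Flt1 overlap between LID + Vehicle and LID + PD98059.

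Apold1, an early response gene of endothelium, had the smallest p of the 36 genes between the infused groups. It read 6.08, 6.32 and 6.15 in Normal, 6.25, 6.28 and 6.35 in PD, 6.08, 6.69 and 6.40 in LID, 7.64, 7.02 and 6.82 in LID + Vehicle and 6.37, 6.19 and 5.82 in LID + PD98059. All 3 LID + Vehicle arrays exceeded all other 12 arrays. The LID + PD98059 arrays lay within the range of Normal, PD and LID except replicate 3. At 5.82 that array was below this range and under the dim level of 5.85. The size of the difference from vehicle thus rests in part on signals close to background. PD98059 and vehicle differed by −1.03 (SE 0.21, a fold of 2.05, unadjusted p = 0.000273, sixth of all rows by p, limma adjusted p = 0.966, exact permutation p = 0.1). LID + Vehicle exceeded LID by 0.77 (SE 0.21, unadjusted p = 0.0027, adjusted p = 0.9999). Both stayed past the unadjusted threshold with each array left out, and without LID + Vehicle replicate 1, the highest array, they were −0.79 and 0.53. LID and PD differed by 0.10, with a 95% interval of −0.35 to 0.55.

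Genes induced by neuronal activity differed in the same direction in both comparisons. A list of 17 such genes, with Fos, Egr1 and Arc among them, had a mean of 8.41, 7.59 and 7.48 on the LID + Vehicle arrays, 7.34, 7.11 and 7.12 on the LID + PD98059 arrays and 7.33, 7.40 and 7.33 on the LID arrays. All 17 were lower with PD98059 than with vehicle, 7 of them at the unadjusted threshold (2.12% of all rows), 5 of 17 were higher in LID + Vehicle than in LID at that threshold (1.85% of all rows), and replicate 1 of LID + Vehicle was highest for the list as for Apold1. The 2 comparisons share the LID + Vehicle arrays. Between Normal and PD the likeness was absent: the list had a mean of 7.30 to 7.42 in Normal and 7.15 to 7.22 in PD, and Apold1 was not lower in PD. Whether Apold1 followed these genes was not tested. The promoter of Apold1 is printed because of the likeness in the 2 comparisons. The core of the cAMP response element, TGACG on either strand, is in capitals (RefSeq, GRCr8, chr4:169552349-169552648, plus strand).
Apold1: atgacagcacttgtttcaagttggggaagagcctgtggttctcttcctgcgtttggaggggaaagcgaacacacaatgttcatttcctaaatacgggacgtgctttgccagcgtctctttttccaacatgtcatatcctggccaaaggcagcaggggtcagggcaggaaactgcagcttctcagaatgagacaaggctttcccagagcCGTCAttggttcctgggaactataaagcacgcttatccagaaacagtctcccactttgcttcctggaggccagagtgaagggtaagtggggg
This core stands at 1 position here, and in 6 of the 26 vascular promoters (23.1%) and 21.2% of all promoters. It is not the only motif in the window, which was searched for 4. The hypoxia response core and AGGAAG are present too and are left in small letters. They occur in 41.6% and 34.5% of all promoters.

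For Tagln, Vcam1, Icam1 and Plvap, single arrays of the L-DOPA groups stood far apart. Some of the genes above had such a spread too. Ocln, given after its values were seen, read 7.48, 6.56 and 7.32 in LID and 6.77, 7.36 and 6.75 in LID + PD98059. Emcn and Vegfa had an SD of 0.55 and 0.48 in LID + PD98059. Tagln, the smooth muscle protein SM22, read 7.12, 7.17 and 7.19 in Normal, 7.27, 7.25 and 7.63 in PD, 8.74, 7.76 and 9.05 in LID, 9.05, 7.71 and 7.75 in LID + Vehicle and 7.82, 8.64 and 7.70 in LID + PD98059. Vcam1, the adhesion molecule that leukocytes bind on inflamed endothelium, read 8.17, 8.26 and 7.78 in Normal, 7.95, 7.75 and 7.71 in PD, 8.74, 8.21 and 9.22 in LID, 8.66, 8.98 and 7.95 in LID + Vehicle and 8.46, 8.98 and 8.06 in LID + PD98059. Both were high on LID replicates 1 and 3, on LID + PD98059 replicate 2 and on 1 or 2 arrays of LID + Vehicle, and lower on the other arrays of the same groups. For Vcam1 the Normal arrays overlapped these lower arrays, while for Tagln they lay below all others. LID exceeded PD by 1.13 for Tagln (SE 0.38, unadjusted p = 0.0111, adjusted p = 0.477) and by 0.92 for Vcam1 (SE 0.30, unadjusted p = 0.00926, adjusted p = 0.464). Without LID replicate 3 both left the unadjusted threshold, at 0.86 and 0.67. The joined L-DOPA groups exceeded PD by 0.86 (adjusted p = 0.333) and 0.78 (adjusted p = 0.277), and the first of these was lost without PD replicate 1 or 2.

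Icam1, a further leukocyte adhesion molecule whose arrays are given because of their likeness to Vcam1, chosen after its values were seen, read 6.56, 7.02 and 6.47 in Normal, 6.78, 6.62 and 6.70 in PD, 7.18, 6.38 and 7.82 in LID, 7.63, 7.27 and 6.72 in LID + Vehicle and 7.18, 7.56 and 6.84 in LID + PD98059. It was high on the same arrays, with LID replicate 3 highest and LID replicate 2 lowest of all 15, and it passed no threshold (L-DOPA groups against PD 0.48, 95% interval −0.09 to 1.04). Plvap, the diaphragm protein of leaky fenestrated vessels, read 5.45, 5.73 and 5.20 in Normal, 5.50, 5.40 and 5.14 in PD, 6.83, 5.15 and 6.58 in LID, 5.92, 5.41 and 5.43 in LID + Vehicle and 5.55, 6.23 and 5.48 in LID + PD98059. It was above the dim level on 4 arrays only, LID replicates 1 and 3, LID + Vehicle replicate 1 and LID + PD98059 replicate 2. Its difference of LID from PD, 0.84 (unadjusted p = 0.0353), was lost without LID replicate 1 or 3 or PD replicate 2 or 3 and was 0.52 to 1.36 over the arrays left out. It was lost in a fit of the compared arrays alone as well.

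The same arrays were high for markers of reactive astrocytes and of microglia, though not for those of other glia. Reactive astrocyte markers, 7 genes with Gfap among them, had a mean of 8.36, 7.45 and 8.77 in LID, 10.42, 9.57 and 7.88 in LID + Vehicle and 8.69, 9.78 and 7.79 in LID + PD98059. Microglia markers, 10 genes, had a mean of 9.55, 7.52 and 9.25, 9.60, 8.89 and 8.60 and 9.07, 9.52 and 8.25 in these groups. LID replicate 2, the lowest LID array for Tagln, Vcam1, Icam1 and Plvap, was lowest for both lists too. LID + Vehicle replicate 2, high for reactive astrocyte markers, was the lowest of its group for Tagln and Plvap. Oligodendrocyte markers had a mean of 10.15, 10.47 and 10.04 in LID, 10.03, 10.10 and 10.33 in LID + Vehicle and 10.48, 10.06 and 10.54 in LID + PD98059. A list of 7 astrocyte markers was lowest of the L-DOPA arrays on LID + Vehicle replicate 1, at 10.26. In the L-DOPA groups against PD 7 of 7 reactive astrocyte markers and 2 of 10 microglia markers were higher at the unadjusted threshold, beside 3.83% of all rows. Microglia markers were also high on Normal replicate 2, at 8.84 beside 7.73 and 7.30. The part of reactive glia in these 4 genes was not tested.

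**Figure D5:**
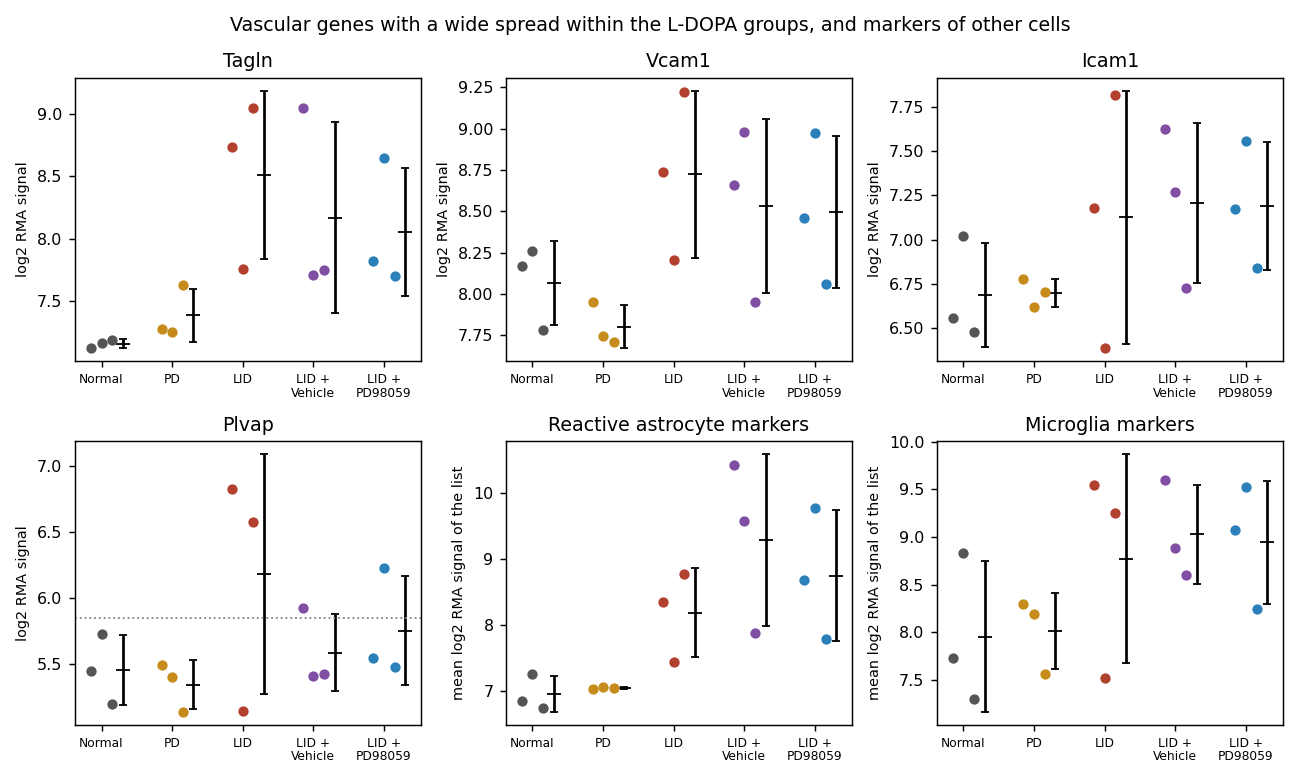
Log2 signal of Tagln, Vcam1, Icam1 and Plvap, and the mean log2 signal of 7 reactive astrocyte and 10 microglia markers, on each array (points, replicates 1 to 3 from left to right) with group mean and SD (n = 3 rats), and the dim level of 5.85 dotted for Plvap. LID replicate 2 is the lowest LID array in all 6 panels, and LID + PD98059 replicate 2 is the highest array of its group in all 6.

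The promoter of Vcam1 is shown for a site of the NF-κB consensus, an element of inflammatory induction, in capitals (RefSeq, GRCr8, chr2:206742734-206743033, minus strand). Only exact matches to the searched consensus are marked, and near matches are left in small letters. The hypoxia response core, also present in this window, is not marked.
Vcam1: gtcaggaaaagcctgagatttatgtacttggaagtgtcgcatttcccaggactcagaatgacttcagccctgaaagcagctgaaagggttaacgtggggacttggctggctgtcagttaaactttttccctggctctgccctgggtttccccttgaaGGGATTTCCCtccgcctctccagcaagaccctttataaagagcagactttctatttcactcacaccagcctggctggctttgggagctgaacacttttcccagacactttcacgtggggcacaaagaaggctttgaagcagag
The consensus was found in 4 of the 26 vascular promoters (15.4%), those of Vcam1, Plvap, Flt1 and Ocln, and in 4.18% of all promoters.

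The mural cell genes other than Tagln gave no comparable difference, and in LID against PD 4 of the 6 mural genes lay below 0 (median −0.19). Of all 36685 rows, 20331 lay below 0 in that comparison (median −0.03), a share not far from that of the mural genes. Array ranks, compared after the values were seen, differed from those of Tagln. LID + PD98059 replicate 2 was highest of its group for Tagln and Anpep and lowest for Pdgfrb, Rgs5, Abcc9 and Notch3. LID replicate 3 was highest of its group for Tagln, lowest for Rgs5, Abcc9 and Notch3 and in the middle for Pdgfrb and Anpep. Pdgfrb, the PDGF receptor of pericytes, had group means of 7.57 to 7.79, Notch3, a receptor of mural cells, 6.72 to 6.86 and Abcc9, a channel subunit of pericytes, 7.40 to 7.68. Rgs5, singled out after its values were seen, read 9.29, 9.83 and 8.42 in LID, replicate 3 being the lowest of all 15 arrays, and the L-DOPA groups differed from PD by −0.38 (95% interval −0.97 to 0.21). Anpep, an aminopeptidase of pericytes, was higher in LID + Vehicle than in LID by 0.60 (unadjusted p = 0.0467), with 6.69, 5.40 and 5.72 against 5.40, 5.26 and 5.34. It was 0.23 without LID + Vehicle replicate 1, and it left the unadjusted threshold without any LID array, with array weights and in a fit of the compared arrays alone.

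Of 118 further vascular genes chosen for hypoxia and VEGF signalling, Notch and ephrins, transcription factors, Wnt and TGF-β signalling, transport, leukocyte entry, mural cells and basement membrane, 106 had a row of their own and 80 were above the dim level. In lesioned against Normal arrays 23 of the 106 were higher at the unadjusted threshold and 2 lower, beside 3.59% and 4.96% of all rows, and Cav1 and Fn1 rose past the adjusted one. Cav1, the coat protein of endothelial caveolae, read 7.54, 7.67 and 7.32 in Normal, 8.02, 7.90 and 7.99 in PD, 8.30, 8.18 and 8.47 in LID, 8.08, 8.05 and 8.39 in LID + Vehicle and 8.28, 8.44 and 8.33 in LID + PD98059. Normal arrays lay below all lesioned ones, and the rise was 0.69 (SE 0.10, adjusted p = 0.00985), with an adjusted p of 0.0885 without Normal replicate 3. Fn1, the matrix protein fibronectin, read 7.59, 7.58 and 7.44 in Normal, 7.90, 7.99 and 7.77 in PD, 8.57, 8.44 and 8.97 in LID, 8.98, 8.81 and 8.30 in LID + Vehicle and 8.43, 8.98 and 8.29 in LID + PD98059. It rose by 0.92 (SE 0.16, adjusted p = 0.0304), with PD between Normal and the L-DOPA groups. This call was lost without any Normal array (adjusted p of 0.091 to 0.162), without PD replicate 2 or 3, LID replicate 1, LID + Vehicle replicate 2 or LID + PD98059 replicate 1 (0.0504 to 0.0604).

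The joined L-DOPA groups had 18 of these 106 genes higher than PD at the unadjusted threshold and 6 lower, beside 3.83% and 5.23% of all rows, with 0 past the adjusted one. Fgf2, an angiogenic growth factor, exceeded PD by 0.76 (adjusted p = 0.0845), Cd93, a surface protein of growing endothelium, by 0.74 (adjusted p = 0.0919) and Nrp1, a co-receptor of VEGF, by 0.70 (adjusted p = 0.246). Cd93 read 5.75, 6.13 and 6.01 in Normal, 5.90, 5.92 and 5.84 in PD, 6.40, 6.96 and 6.65 in LID, 6.84, 6.63 and 6.59 in LID + Vehicle and 6.27, 6.39 and 6.87 in LID + PD98059. Each of its L-DOPA arrays exceeded each PD array. Efnb2, an arterial ephrin, was lower by 0.56 (log2 difference −0.56, adjusted p = 0.263). Fgf2 was the gene of this list with the smallest p in LID + Vehicle against LID (0.63, unadjusted p = 0.00318) and was lower with PD98059 than with vehicle (−0.49, unadjusted p = 0.0146, adjusted p = 0.966). It read 6.35, 6.51 and 6.42 in Normal, 6.45, 6.15 and 6.14 in PD, 6.86, 6.61 and 6.78 in LID, 7.75, 7.40 and 6.97 in LID + Vehicle and 6.73, 7.10 and 6.83 in LID + PD98059, so that LID + Vehicle replicate 1 was highest, as for Apold1. Its difference between the infused groups left the unadjusted threshold with the first array of either infused group taken out and in a fit of these 6 arrays alone.

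In the other 4 comparisons 0 of the 106 genes passed the adjusted threshold of limma. PD against Normal had 5 of the 106 higher and 2 lower, beside 2.36% and 1.95% of all rows, with Cav1 first by p (0.46, unadjusted p = 0.00217). LID against PD had 13 higher and 5 lower, beside 3.48% and 4.69% of all rows, with Cd93, Fn1, Tfrc, the transferrin receptor of the barrier, and Nrp1 at the top (0.78, 0.77, 0.44 and 0.91). LID + Vehicle against LID had 3 higher and 4 lower, beside 1.85% and 1.82% of all rows. LID + PD98059 against LID + Vehicle had 7 higher and 4 lower, beside 2.33% and 2.12% of all rows, with Nid2, a basement membrane protein, first by p (0.33, adjusted p = 0.966).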

How the data were processed

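Total RNA of striatum was hybridised to Affymetrix Rat Gene 2.0 ST arrays, and the authors deposited log2 values from Affymetrix Expression Console, background adjusted, normalized and summarised by RMA. The exon option of that software was chosen, and probes of 1 transcript were combined by their median, per the study's methods, which do not say whether the deposited rows precede that median. The software's version is not given in the sources used here. The 15 columns held 36685 rows with no missing value and were used without further scaling. The number of arrays limits the precision. Symbols came from the platform's probe table. A row with several symbols was not used, and of several rows of a further gene the brightest was taken.

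Tests between groups were those of limma 3.58.1 (R 4.3.3), two-sided, from linear models with a mean per group over all 15 arrays and Benjamini-Hochberg adjustment over all rows. The joined comparisons weigh groups equally. Exact permutation tests were two-sided, over all splits of the arrays. The script was tested on simulated data. Alternatives were a replicate block, trend and robust eBayes settings, 2 rescalings, array weights (statmod 1.5.0), rows above the dim level, the compared arrays alone and leaving out each array. Promoters came from RefSeq, with 26 of 36 genes matched by gene ID. They were searched for 4 motifs, and each printed promoter marks a single motif of these. Plots used matplotlib 3.10.9.

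The genes, the lists and the comparison of all lesioned groups with Normal were chosen with earlier results of these data known. Per array values are given for genes past either threshold, and up to 8 other vascular genes per comparison could be named, by smallest p.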

Additional observations from a re-analysis of the deposited data

How the results depend on the processing

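Of 1130 values of single named genes past the unadjusted threshold, each recomputed under an alternative, 1082 kept their direction and side of the adjusted threshold, 33 lost the adjusted call, 15 gained it and 0 changed direction. The losses were those of Angpt2, Cdh5, Cav1, Fn1, Neurod2 and Neurod6 in lesioned against Normal arrays, with single arrays left out as given above and, for Fn1 and Neurod2, with the replicate block (adjusted p = 0.0518 and 0.0519). The gains were those of Angpt2, Fgf2 and Cd93 in the L-DOPA groups against PD and of Mfsd2a and Slc2a1 in lesioned against Normal arrays.

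The number of vascular genes past the unadjusted threshold in LID + Vehicle against LID went from 5 to 3 with a replicate block or with dim rows left out and to 2 in a fit of the compared arrays alone, and in LID + PD98059 against LID + Vehicle from 4 to 2 in a fit of the compared arrays alone. Rows of the whole table past the adjusted threshold went from 2 to 1 in LID against PD with a replicate block, without dim rows or with the compared arrays alone. In the L-DOPA groups against PD they went from 6 to 2 with the block, 16 with trend and robust eBayes, 74 with array weights and 57 without dim rows, and in lesioned against Normal arrays from 203 to 105, 392 with array weights and 367 without dim rows. The cause was not tested, beyond the smaller number of rows or arrays in 2 of these settings. For the unadjusted threshold, the share of all rows was not computed under these alternatives.

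With single arrays left out, PD against Normal gave 4 to 9 vascular genes past the unadjusted threshold, a median of 0.141 to 0.245 and 0 to 1 rows of the table past the adjusted one. LID against PD gave 5 to 12 (12 without LID replicate 2), a median of −0.0063 to 0.119 and 1 to 2 rows. LID + Vehicle against LID gave 2 to 7, 0.004 to 0.064 and 0 to 1 rows, and LID + PD98059 against LID + Vehicle 2 to 6, −0.0658 to 0.0162 and 0 to 1 rows. The L-DOPA groups against PD gave 4 to 9, 0.0323 to 0.152 and 1 to 26 rows. Lesioned against Normal arrays gave 6 to 13, 0.202 to 0.316 and 11 to 276 rows. The share of all rows past the unadjusted threshold was not computed with arrays left out. Whether these counts of vascular genes moved with the whole table is therefore not known.

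Replicate numbers are shared between groups without a stated pairing, and arrays with the same number did not deviate together (residual r of −0.41 to 0.23, over 0.1 in 6 of 30 pairs), so the block was not used above. With it, vascular genes past the unadjusted threshold were 5 in PD against Normal, 7 in LID against PD and 3 in LID + PD98059 against LID + Vehicle. They were 7 in the L-DOPA groups against PD and 8 in lesioned against Normal arrays. The share of all rows past that threshold with the block was not computed. Vascular genes that left that threshold with the block were Slc2a1 in PD against Normal, Flt1 and Anpep in LID + Vehicle against LID, Flt1 in LID + PD98059 against LID + Vehicle and Vwf in 4 lesioned groups against Normal. The mean of several rows of a gene was not run, since each of the 36 genes had 1 row. Angpt1, Flt4, Plvap, Vegfc, Icam2 and Anpep lay under the dim level on average, as Abcg2 did in Normal, LID and LID + PD98059, and their differences are uncertain in size.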
